A study of Mus musculus with 13 samples.

Results

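The 50 genes described here encode the machinery with which a cell enters and completes mitosis, from the mitotic cyclins and kinases to the kinetochore, the spindle and the cleavage furrow. They were chosen by gene symbol, with earlier results of these data known, and all 50 were found among the 23366 genes of the count table. They are taken in 9 groups by role. Of these, 6 act in entry into mitosis (Cdk1, Ccna2, Ccnb1, Ccnb2, Cdc25c and Foxm1) and 3 are other mitotic kinases (Plk1, Aurka and Nek2). The spindle checkpoint has 5 (Bub1, Bub1b, Bub3, Mad2l1 and Ttk), anaphase onset 3 (Cdc20, Espl1 and Pttg1), the centromere and kinetochore 10 (Cenpa, Cenpe, Cenpf, Cenpi, Cenpk, Cenpn, Ndc80, Nuf2, Spc24 and Spc25), and the chromosomal passenger complex 4 (Aurkb, Incenp, Birc5 and Cdca8). Spindle motors and assembly factors number 6 (Kif11, Kif15, Kif22, Kif2c, Kif4 and Tpx2), the central spindle and cytokinesis 6 (Kif20a, Kif20b, Kif23, Prc1, Anln and Ect2), and condensin and chromosome structure 7 (Ncapd2, Ncapg, Ncaph, Smc2, Smc4, Top2a and Mki67).

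RNA was sequenced after ribosomal RNA depletion from mouse hind limb muscle cells of mixed strain, isolated from pups 2 to 3 days old and cultured as primary myoblasts. The 4 groups were dICR/dICR myoblasts (n = 2), wild-type myoblasts (n = 4), dICR/dICR myotubes (n = 2) and wild-type myotubes (n = 5). In the dICR/dICR cells both alleles lack the imprinting control region of the Igf2 and H19 locus, and myotubes are cultures kept for 24 hours in medium with 1% horse serum. The labels do not say how many animals or cultures the replicates came from, nor what share of the cells had fused. The design text of the series speaks of 2 to 3 replicates a group, fewer than the 4 and 5 wild-type libraries in the table, and whether these are all separate biological samples is not stated. P-values therefore measure the spread between these libraries, which may be technical.

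Mitotic genes are switched on late in the cell cycle, when Cdk1 bound to the A and B cyclins drives chromosome condensation and spindle assembly, and their products are used up or destroyed as the cell divides. In resting cells the DREAM complex, built of the retinoblastoma-family pocket proteins, E2F4 and the MuvB core, holds many of these genes silent, and in dividing cells MuvB joins B-MYB and FOXM1 to activate them. Myoblasts divide in growth medium and leave the cell cycle for good as they differentiate and fuse, and the loss of mitotic transcripts is a known part of this step in muscle culture.

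The MuvB core binds the cell cycle genes homology region, with the letters TTTGAA or TTCGAA, and the activator NF-Y binds CCAAT boxes, which often lie a few helical turns upstream of it. Promoter sequence from RefSeq (build GRCm38.p6, 250 bases before to 50 after each annotated start) was at hand for 41 of the 50 genes, and was searched for both motifs on both strands. A CCAAT box can share an end base with a homology region match, and both are then counted. TTTGAA or TTCGAA was found in 31 of the 41 genes (75.6%) and in 21.7% of the 27025 genes of the table. CCAAT was found in 31 of the 41 (75.6%) and in 41.1% of all genes, at least 2 CCAAT boxes in 20 (48.8%) and in 13.3%, and both motifs in 26 (63.4%) and in 8.61%. The promoters of 6 genes are printed to show the range: Cdk1 and Top2a, with several of both motifs, Ncapd2, the gene called in dICR/dICR myotubes below, Bub3, which varied least, Ccnb1, which holds CCAAT boxes alone, and Mad2l1, which holds neither. They read 5′ to 3′ along the gene and lie at chr10:69352863-69353162 on the minus strand (Cdk1), chr11:99024140-99024439 on the minus strand (Top2a), chr6:125191537-125191836 on the minus strand (Ncapd2), chr7:131560120-131560419 on the plus strand (Bub3), chr13:100786437-100786736 on the minus strand (Ccnb1) and chr6:66534971-66535270 on the plus strand (Mad2l1). For Bub3 the first of its 2 annotated starts is shown. Capitals mark each match, with TTCAAA and ATTGG as the same motifs on the other strand.
Cdk1: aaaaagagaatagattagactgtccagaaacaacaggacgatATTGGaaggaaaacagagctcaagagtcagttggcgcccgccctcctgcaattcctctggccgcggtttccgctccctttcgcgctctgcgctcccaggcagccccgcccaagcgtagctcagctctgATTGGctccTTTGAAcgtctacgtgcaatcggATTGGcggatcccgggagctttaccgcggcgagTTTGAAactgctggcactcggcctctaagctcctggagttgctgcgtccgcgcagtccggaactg
Top2a: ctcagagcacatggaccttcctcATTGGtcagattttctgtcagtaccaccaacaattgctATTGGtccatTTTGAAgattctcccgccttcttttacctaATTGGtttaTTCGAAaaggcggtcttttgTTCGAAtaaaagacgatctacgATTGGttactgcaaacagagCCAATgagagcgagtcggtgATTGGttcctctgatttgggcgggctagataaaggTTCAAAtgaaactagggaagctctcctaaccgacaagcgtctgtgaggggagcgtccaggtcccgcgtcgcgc
Ncapd2: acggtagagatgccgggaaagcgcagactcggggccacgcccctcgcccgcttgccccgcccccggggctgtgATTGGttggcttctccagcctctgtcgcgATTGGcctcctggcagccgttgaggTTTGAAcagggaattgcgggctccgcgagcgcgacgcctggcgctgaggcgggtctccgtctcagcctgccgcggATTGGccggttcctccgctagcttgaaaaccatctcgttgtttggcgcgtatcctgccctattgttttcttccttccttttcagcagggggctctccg
Bub3: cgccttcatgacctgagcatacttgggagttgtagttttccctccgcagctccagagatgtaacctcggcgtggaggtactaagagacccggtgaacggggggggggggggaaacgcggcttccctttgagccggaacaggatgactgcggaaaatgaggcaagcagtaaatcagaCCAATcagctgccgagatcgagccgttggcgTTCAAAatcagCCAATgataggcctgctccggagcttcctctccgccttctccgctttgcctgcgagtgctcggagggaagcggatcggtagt
Ccnb1: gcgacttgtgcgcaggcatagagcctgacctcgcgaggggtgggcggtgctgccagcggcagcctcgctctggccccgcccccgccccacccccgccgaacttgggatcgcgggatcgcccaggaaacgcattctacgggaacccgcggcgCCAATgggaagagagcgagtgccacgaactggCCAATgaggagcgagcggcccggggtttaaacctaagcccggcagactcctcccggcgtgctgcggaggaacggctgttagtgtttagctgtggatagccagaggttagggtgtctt
Mad2l1: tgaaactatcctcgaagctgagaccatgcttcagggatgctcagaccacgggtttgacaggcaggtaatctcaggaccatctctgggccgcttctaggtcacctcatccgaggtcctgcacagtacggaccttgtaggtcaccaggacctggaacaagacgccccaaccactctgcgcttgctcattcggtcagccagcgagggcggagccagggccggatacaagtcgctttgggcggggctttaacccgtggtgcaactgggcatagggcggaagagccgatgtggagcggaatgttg

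In Cdk1 the first bases of the homology region matches stand 71 and 15 bases before the start and those of the CCAAT boxes 208, 80 and 48 before it. In Ncapd2 the homology region match lies 123 bases before the start, between CCAAT boxes at 148 and 48 bases. A match is a description of the letters and no site of binding, and its absence says only that these letters are not in the window.

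**Figure D1:**
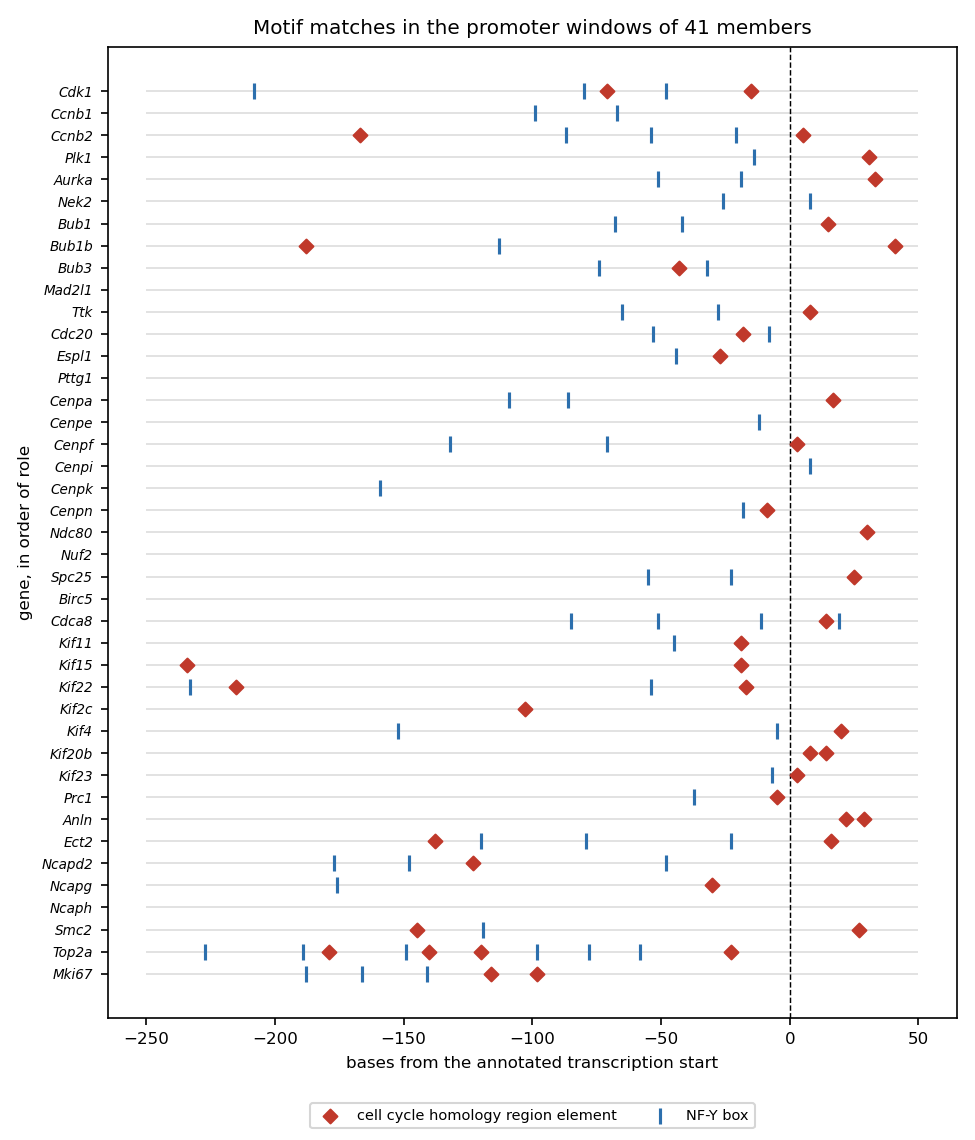
Positions of TTTGAA or TTCGAA (diamonds) and CCAAT (bars), on either strand, along the promoter windows of the 41 genes that have one, in bases from the annotated transcription start (dashed line), with the first annotated start shown where a gene has several. Most matches of both kinds lie within 100 bases of the start, and the rows of Mad2l1, Pttg1, Nuf2, Birc5 and Ncaph hold none.

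Total counts per library, in M (mega-counts), ran from 5.313 to 56.44 M, in a deep set of 7 libraries (35.56 to 56.44 M) and a shallow set of 6 (5.313 to 10.91 M). Small nucleolar RNA genes took 0.028 to 0.177% of counts in the deep set and 2.81 to 7.18% in the shallow set. The labels describe library preparation for 2 sequencing platforms, Illumina HiSeq and ABI SOLiD, without saying which library was run on which, so whether the sets follow platform was not tested. Both dICR/dICR myoblasts are shallow and both dICR/dICR myotubes deep, whereas wild-type myoblasts 1 and 2 and myotubes 1 to 3 are deep and wild-type myoblasts 3 and 4 and myotubes 4 and 5 shallow. H19, the noncoding RNA of the deleted locus, stood at 52.4 to 71.5 CPM (counts per M counts, scaled with TMM factors) in the 4 dICR/dICR libraries and at 2340 to 40500 CPM in the 9 wild-type ones. Transcripts of the muscle regulator gene Myod1 were present in each library, and the defining leukocyte, endothelial and fat genes Ptprc, Pecam1 and Adipoq stood at 0 to 1.38 CPM. Summed CPM ran from 3.31 to 14.6 for 8 macrophage and leukocyte markers, 0.61 to 6.29 for 6 endothelial and 0 to 2.87 for 5 adipocyte markers. The 10 fibroblast markers were higher, at 386 to 447 CPM in wild-type myoblasts and 191 to 373 CPM in dICR/dICR myoblasts. In myotubes they summed to 328 to 1050 CPM in wild type and 143 to 409 CPM in dICR/dICR. The 5 smooth muscle and pericyte markers summed to 82.5 to 4490 CPM, mostly Acta2, an actin gene that differentiating muscle cells also express. The Y-linked gene Ddx3y stood under 1 CPM (0.153 to 0.462) in the 4 wild-type libraries of the shallow set, and at 14.5 to 176 CPM in the other 9.

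Each of the 50 genes had a count in each of the 13 libraries and passed the filter on low counts, so the members that were tested are all 50. A single library stood apart on them. Their CPM summed to 6408 and 3174 in dICR/dICR myotubes 1 and 2, against 772.6, 3536, 316.8, 450.2 and 376.2 in wild-type myotubes 1 to 5. Wild-type myotube 2 thus carried a summed level above that of dICR/dICR myotube 2, while the other 4 lay well below both. In myoblasts the sums were 6974 and 7364 for the dICR/dICR libraries, against 6865, 6419, 3467 and 3184 for wild-type myoblasts 1 to 4, where the deep libraries 1 and 2 lay close to dICR/dICR and the shallow libraries 3 and 4 well below it. In bulk RNA a smaller share of dividing cells and less mitotic RNA per cell cannot be told apart. For this reason fold changes of single genes that involve wild-type myotubes are given with and without library 2. Library 2 is left out for its high level of these same genes, so larger effects without it were fixed in advance. Values without it show how far the results depend on it and are no separate support.

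Wild-type myotube 2 differed from the other 4 in further ways. The 10 fibroblast markers summed to 1050 CPM in it and to 328 to 509 CPM in the other wild-type myotubes, and 4 of the 10 were highest in it. These were Col3a1 (888 CPM in library 2 against 174 to 342 CPM in the others), Fap (20.4 against 0.11 to 0.81 CPM), Postn (57.9 against 28.8 to 53.6 CPM) and Ly6a (7.2 against 0 to 2.12 CPM). The other 6, Col1a1, Col1a2, Pdgfra, Dcn, Lum and Thy1, were not, and Dcn, Lum and Thy1 stood at 0.46, 0.03 and 0.06 CPM in it. The 5 smooth muscle and pericyte markers summed to 4490 CPM in it and to 2160 to 3250 CPM in the others, with 2 of the 5 highest in it, Acta2 (4402 against 2116 to 3225 CPM) and Pdgfrb (79.8 against 0 to 12.4 CPM). Of 8 myoblast markers 2 were highest in wild-type myotube 2, Pax7 (46.7 against 14.7 to 19.7 CPM) and Myf5 (45.5 against 13.3 to 29.7 CPM). The 8 summed to 6120 CPM in it and to 7730 to 9070 CPM in the others. The myogenic regulator gene Myog stood at 2497 CPM in it and at 3435 to 6412 CPM in the other 4. The mean log2 CPM of 20 sarcomere genes was 9.68 in it and 9.74 to 11.17 in the others. Its 20313 genes with a count were the highest number among the 13 libraries. The part of these differences in the mitotic gene levels was not tested.

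**Figure D2:**
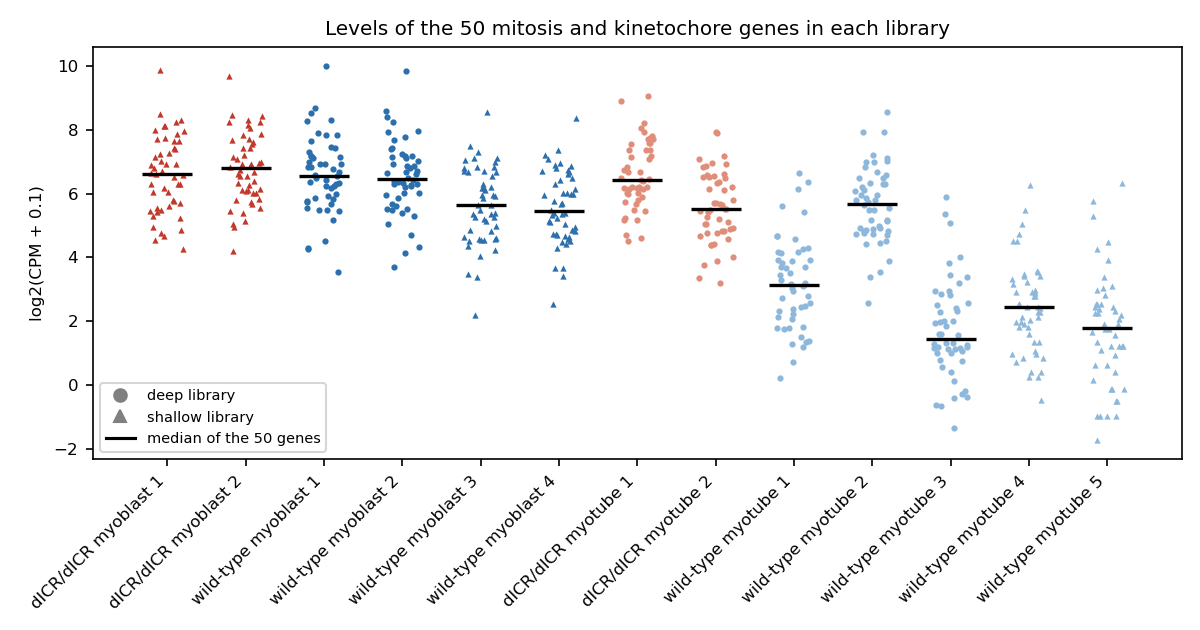
Level of each of the 50 genes in each library, as log2(CPM + 0.1), with circles for deep and triangles for shallow libraries and a line at the median of the 50 genes. The wild-type myotubes other than library 2 lie below all other libraries, and wild-type myotube 2 lies beside dICR/dICR myotube 2.

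The genotype effect in myotubes asks whether cells without the imprinting control region carry other levels of mitotic RNA 24 hours after the change of medium. All 50 fold changes (dICR/dICR over wild type) were positive, with a median log2 fold change of 2.35, against -0.06 over all 16537 genes tested. Of the 50, 1 gene was higher past the threshold of an adjusted p under 0.05, the condensin subunit gene Ncapd2, where 0.333% of all genes were called higher. It stood at 214 and 135 CPM in dICR/dICR myotubes, against 25.3, 69.8, 14.1, 26.8 and 22.4 CPM in wild-type myotubes 1 to 5, so that the groups did not overlap. The log2 fold change was 2.46 ± 0.44 (adjusted p = 0.0357, edgeR), and 42 of the 50 genes had an unadjusted p under 0.05, as had 2773 of all 16537 genes. DESeq2 called 7 of the 50 higher, where it called 2.84% of all genes, and limma voom 14, where it called 1.61%. With wild-type myotube 2 left out, 49 of the 50 were higher, all but Bub3, with a median of 3.86, where 4.59% of all genes were called higher. That library was left out for its high level of these genes, so this is no independent test. The median was 1.68 without dICR/dICR myotube 1 and 2.76 without dICR/dICR myotube 2, each leaving 1 dICR/dICR myotube. The call of Ncapd2 held without wild-type myotube 2 (log2 fold change 2.95 ± 0.28) and was lost without any 1 of the other 12 libraries, its adjusted p running from 0.000182 to 0.617 over 23 alternatives.

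The groups of myotubes did not overlap for 19 of the 50 genes, each with both dICR/dICR libraries above all 5 wild-type ones, as was so for 10.5% of all genes. Without wild-type myotube 2 the number was 49, all but Bub3, against 15.9% of all genes. The 2 dICR/dICR libraries differed between themselves: all 50 genes were higher in library 1 than in library 2, by a median of 2.06 times, from 1.12 times for Foxm1 to 3.78 times for Ccnb2. Between dICR/dICR myotube 2 and wild-type myotube 2 the genes ran both ways, with 30 higher in wild-type myotube 2 and 20 in dICR/dICR myotube 2. Over wild-type myotube 3, wild-type myotube 2 was higher by a median of 17.4 times.

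Among genes of entry into mitosis, Cdk1, the kinase at the centre of the step, stood at 208 and 89.2 CPM in dICR/dICR myotubes, against 15.2, 74.1, 5.58, 10.5 and 5.30 CPM in wild-type myotubes. Both dICR/dICR libraries lay above all 5 wild-type ones, with library 2 of the wild type the nearest to them. The log2 fold change was 2.74 ± 0.83 (adjusted p = 0.141, edgeR), and 3.98 ± 0.51 without wild-type myotube 2. Ccna2, which encodes cyclin A, stood at 165 and 69.5 CPM in dICR/dICR myotubes, against 8.99, 102, 2.93, 4.0 and 3.67 CPM in wild type. Here wild-type myotube 2 lay between the 2 dICR/dICR libraries, and the log2 fold change was 2.26 ± 1.08. Without that library it was 4.53 ± 0.46. Ccnb1, the gene of cyclin B that switches Cdk1 on, stood at 245 and 96.2 CPM in dICR/dICR myotubes, against 17.8, 95.4, 3.92, 1.08 and 1.02 CPM in wild type. This gave 2.82 ± 1.40 (adjusted p = 0.327, edgeR) as the log2 fold change, and 4.74 ± 1.23 without wild-type myotube 2. Over the 6 genes of this group, which hold also Ccnb2, the Cdk1-activating phosphatase gene Cdc25c and the transcription factor gene Foxm1, log2 fold changes ran from 2.26 to 2.82 and none passed over all libraries.

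Both named kinases, Aurka, which matures the spindle poles, and Nek2, which parts the centrosomes, are kinases of the centrosome cycle. Aurka stood at 103 and 52.2 CPM in dICR/dICR myotubes, against 12.5, 44.6, 4.76, 7.85 and 3.26 CPM in wild type, and did not overlap. Its log2 fold change was 2.39 ± 0.71 (adjusted p = 0.136, edgeR), and 3.40 ± 0.43 without wild-type myotube 2. Nek2 stood at 86.2 and 45.8 CPM, against 10.9, 49.6, 2.84, 4.31 and 2.04 CPM in wild type, where library 2 lay above dICR/dICR library 2. The log2 fold change was 2.22 ± 0.89 over all libraries and 3.64 ± 0.53 without wild-type myotube 2. Plk1, the polo-like kinase gene, completes this group, whose 3 values had a median of 2.39.

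The spindle checkpoint delays anaphase until each kinetochore is attached. Bub1b, the gene of BubR1, which inhibits the anaphase-promoting complex, stood at 226 and 91.2 CPM in dICR/dICR myotubes, against 17.6, 89.0, 2.38, 8.93 and 6.93 CPM in wild type. Its 2 groups did not overlap, with wild-type myotube 2 close below dICR/dICR myotube 2, and its log2 fold change was 2.66 ± 0.92 (adjusted p = 0.187, edgeR), and 4.11 ± 0.57 without wild-type myotube 2. Bub3, whose product carries Bub1 and BubR1 to kinetochores and is also found in resting cells, stood at 146 and 91.2 CPM in dICR/dICR myotubes, against 101, 90.4, 59.7, 76.8 and 79.6 CPM in wild type. Its groups overlapped, wild-type myotube 1 lying above dICR/dICR myotube 2, and its log2 fold change, 0.54 ± 0.24 (adjusted p = 0.276, edgeR), was the lowest of the 50. It was 0.55 ± 0.24 without wild-type myotube 2. The other checkpoint genes, Bub1, Mad2l1 and the kinase gene Ttk, had log2 fold changes of 1.92 to 2.65.

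For anaphase onset, Cdc20, which activates the anaphase-promoting complex, stood at 115 and 73.4 CPM in dICR/dICR myotubes, against 19.2, 79.5, 5.22, 6.77 and 4.69 CPM in wild type, with library 2 of the wild type between the 2 dICR/dICR libraries. Its log2 fold change was 2.01 ± 0.85, and 3.34 ± 0.49 without that library. Espl1, the gene of separase, which cleaves cohesin, stood at 71.9 and 51.4 CPM, against 3.35, 28.9, 1.23, 1.85 and 0.810 CPM in wild type, without overlap. The log2 fold change was 3.04 ± 1.00 (adjusted p = 0.172, edgeR), and 4.99 ± 0.52 without wild-type myotube 2. Pttg1, the gene of the separase inhibitor securin, also had no overlap.

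Of the 10 centromere and kinetochore genes, Cenpk, a member of the inner kinetochore, had the largest log2 fold change of the 50, at 3.12 ± 0.80 (adjusted p = 0.0946, edgeR). It stood at 24.2 and 10.2 CPM in dICR/dICR myotubes, against 1.07, 5.81, 0.650, 0.620 and 1.22 CPM in wild type, without overlap. Spc25, of the outer NDC80 complex that grips microtubules, stood at 53.0 and 23.6 CPM, against 4.31, 21.8, 1.92, 3.85 and 0.810 CPM in wild type, without overlap, for a log2 fold change of 2.51 ± 0.83. The motor gene Cenpe, whose product moves chromosomes to the metaphase plate, stood at 163 and 80.1 CPM, against 12.8, 127, 3.90, 6.77 and 3.46 CPM in wild type, so that wild-type myotube 2 lay above dICR/dICR myotube 2. Its log2 fold change was 1.97 ± 1.07, and 4.12 ± 0.49 without wild-type myotube 2. Cenpf, a corona protein gene, behaved in the same way, at 192 and 113 CPM against 17.8, 127, 5.77, 10.0 and 10.4 CPM in wild type and a log2 fold change of 2.14 ± 0.89. Leaving out wild-type myotube 2 gave 4.26 ± 0.62 for Cenpk, 3.74 ± 0.55 for Spc25 and 3.76 ± 0.39 for Cenpf. The 10 values over all libraries ran from 1.18 (Spc24) to 3.12, and none passed over all libraries.

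The chromosomal passenger complex, in which the kinase Aurora B corrects faulty attachments, had log2 fold changes of 1.74 to 2.96. Aurkb itself stood at 59.7 and 28.6 CPM in dICR/dICR myotubes, against 2.17, 22.6, 0.550, 1.23 and 0.610 CPM in wild type, without overlap, for 2.96 ± 1.05 (adjusted p = 0.199, edgeR) on the log2 scale. With wild-type myotube 2 left out it was 5.18 ± 0.55. Birc5, the gene of survivin, which places the complex on the chromosome, stood at 71.4 and 32.9 CPM, against 3.39, 26.4, 3.49, 3.69 and 2.24 CPM in wild type, also without overlap. The log2 fold change was 2.69 ± 0.83, and 3.96 ± 0.53 without wild-type myotube 2. The scaffold gene Incenp stood at 71.9 and 50.2 CPM, against 11.4, 55.7, 7.65, 7.23 and 8.56 CPM in wild type, where library 2 exceeded dICR/dICR library 2, and its log2 fold change was 1.74 ± 0.68, and 2.77 ± 0.30 without that library.

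Among spindle genes, Kif11, the motor that pushes the spindle poles apart, stood at 165 and 83.0 CPM in dICR/dICR myotubes, against 14.7, 79.1, 2.93, 5.69 and 4.89 CPM in wild type, with no overlap. Its log2 fold change was 2.51 ± 0.94 (adjusted p = 0.218, edgeR), and 4.09 ± 0.56 without wild-type myotube 2. Tpx2, which activates Aurora A and nucleates microtubules, stood at 189.8 and 98.0 CPM, against 19.3, 113, 4.86, 10.5 and 4.07 CPM in wild type, with library 2 of the wild type between the dICR/dICR libraries. The log2 fold change was 2.23 ± 0.95, and 3.85 ± 0.54 without that library. In the central spindle, Prc1, which bundles antiparallel microtubules, stood at 194 and 115 CPM, against 70.1, 147, 34.0, 32.8 and 39.1 CPM in wild type, a log2 fold change of 1.25 ± 0.52. Anln, the gene of the furrow scaffold anillin, stood at 209 and 121 CPM, against 25.2, 129, 9.02, 11.7 and 4.48 CPM in wild type, a log2 fold change of 2.19 ± 0.96. For both, wild-type myotube 2 lay between the 2 dICR/dICR libraries, and leaving it out gave 1.78 ± 0.35 for Prc1 and 3.67 ± 0.63 for Anln.

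Besides Ncapd2, the genes of chromosome structure included Top2a, whose topoisomerase untangles sister chromatids. It stood at 530.0 and 242 CPM in dICR/dICR myotubes, against 48.9, 376, 10.3, 22.6 and 15.1 CPM in wild type, which came to 2.03 ± 1.08 (adjusted p = 0.357, edgeR) on the log2 scale, and 3.96 ± 0.62 without wild-type myotube 2. The condensin ATPase gene Smc4 stood at 267 and 145 CPM, against 82.9, 247, 40.7, 44.6 and 54.6 CPM in wild type, and its log2 fold change of 1.13 ± 0.62 was the lowest of this group, and it was 1.85 ± 0.38 without wild-type myotube 2. Mki67, the gene of the proliferation antigen Ki-67, and the condensin genes Ncapg, Ncaph and Smc2 had values of 2.12 to 2.68, none of which passed.

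**Figure D3:**
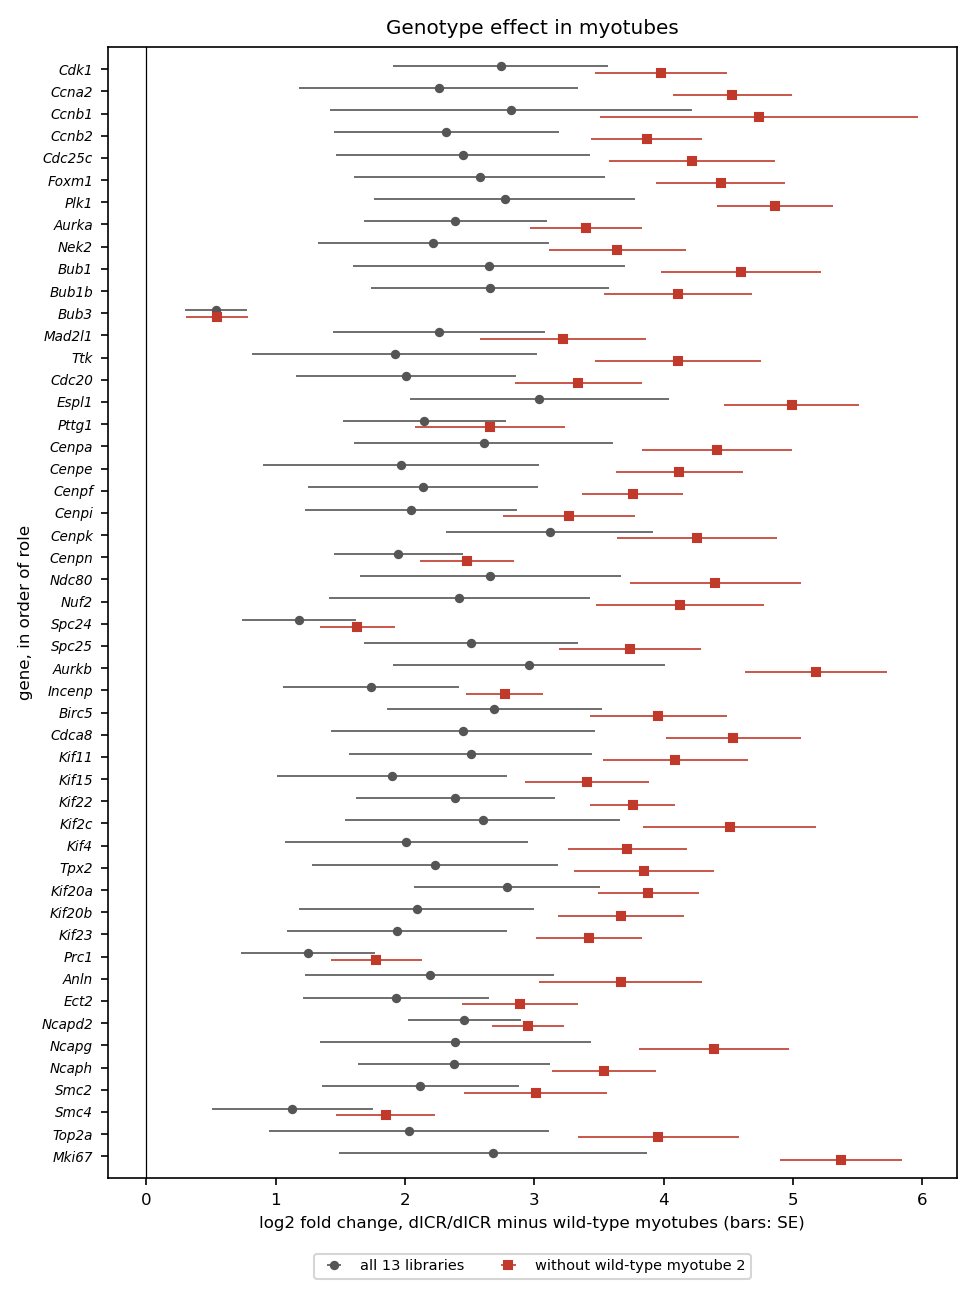
Log2 fold change of each gene in dICR/dICR over wild-type myotubes, with its standard error, fitted on all 13 libraries (grey circles) and without wild-type myotube 2 (red squares), in order of role. All values lie above 0, those without wild-type myotube 2 have a median of 3.86 against 2.35, and Bub3 stays near 0.5 in both.

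Within the deep set, where both genotypes of myotube were sequenced to like depth, the median log2 fold change was 1.82 in a fit of all libraries with a mean for each group in each set. Ncapd2 was again the 1 gene called (log2 fold change 2.26 ± 0.49, adjusted p = 0.031, edgeR), where 1.81% of all genes were called higher. With the 7 deep libraries fitted alone the median was 1.80 and 0 were called by edgeR, 8 having an unadjusted p under 0.05, where 0.274% of all genes were called higher. Over all genes of that fit 2587 of 14952 had such a p. The deep set holds wild-type myotube 2 as 1 of its 3 wild-type myotubes.

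Sarcomere genes ran the other way in these myotubes. The mean log2 CPM of the 20 genes was 8.71 and 9.67 in dICR/dICR myotubes 1 and 2, against 9.74, 9.68, 10.3, 10.67 and 11.17 in wild-type myotubes 1 to 5. All 20 had negative fold changes, with a median of -1.16 and 0 called by edgeR. Within each genotype the library with the highest mitotic sum, dICR/dICR myotube 1 and wild-type myotube 2, had the lowest sarcomere mean. Its part in the mitotic difference was not tested.

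Differentiation in wild type asks how far mitotic RNA declines in the first 24 hours. All 50 fold changes (myotubes over myoblasts) were negative, with a median log2 fold change of -2.30 against 0.02 over all genes. Of the 50, 22 fell past the threshold, where 10.2% of all genes were called lower, and 45 had an unadjusted p under 0.05. Over all genes 5489 of 16537 had such a p, in either direction. DESeq2 called 37 lower, where it called 13.5% of all genes, and limma voom 49, where it called 13.1%. Scaling by library size alone called 17.1% of all genes lower and 4.71% higher, against 10.2% and 8.86% with TMM, and 28 of the 50 lower. Without wild-type myotube 2 all 50 fell, with a median of -3.86, where 13% of all genes were called lower. The count was 5 without wild-type myoblast 1 or 2, 12 without wild-type myotube 1 or 3 and 11 without wild-type myotube 4, and it stood between 15 and 19 without any other library.

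The 22 came from each of the 9 roles. They were 1 of 6 genes of entry (Cdk1), 1 of 3 kinases (Aurka), 2 of 5 checkpoint genes (Bub3 and Mad2l1), 2 of 3 genes of anaphase onset (Cdc20 and Pttg1) and 5 of 10 kinetochore genes (Cenpi, Cenpk, Cenpn, Spc24 and Spc25). The others were 3 of 4 passenger genes (Aurkb, Incenp and Birc5), 1 of 6 spindle genes (Kif22), 4 of 6 genes of the central spindle and cytokinesis (Kif20a, Kif23, Prc1 and Anln) and 3 of 7 of chromosome structure (Ncapd2, Ncaph and Smc2). Wild-type myotubes lay below all wild-type myoblasts, without overlap, for 18 of the 50 genes, as for 9.91% of all genes. With wild-type myotube 2 left out this was so for 49, all but Ccnb1, against 13.8% of all genes.

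The myotube values have been given above. In wild-type myoblasts 1 to 4, of which 1 and 2 are deep, Cdk1 stood at 240.4, 246, 103 and 104 CPM, and its log2 fold change was -2.96 ± 0.74 (adjusted p = 0.0173, edgeR). Ncapd2 stood at 146, 144, 179 and 165 CPM there, with little spread between the sets, and its log2 fold change of -2.32 ± 0.39 (adjusted p = 0.00272, edgeR) had the smallest p of the 50. Aurkb, at 78.7, 83.6, 38.5 and 37.8 CPM in wild-type myoblasts, had the largest fall, with -3.40 ± 0.95 (adjusted p = 0.028, edgeR) as its log2 fold change. Spc25, at 74.7, 89.8, 37.1 and 35.5 CPM there, had the next largest, -3.14 ± 0.75 (adjusted p = 0.0138, edgeR), and it was the 1 named gene whose call held under each of the 25 alternatives. Leaving out wild-type myotube 2 gave -4.22 ± 0.48 for Cdk1, -2.83 ± 0.25 for Ncapd2, -5.63 ± 0.52 for Aurkb and -4.39 ± 0.52 for Spc25.

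Among the other genes that fell, Aurka had 80.4, 74.3, 61.8 and 64.8 CPM in wild-type myoblasts 1 to 4 and changed by -2.25 ± 0.62 on the log2 scale. Cdc20 had 158, 169.8, 101 and 89.0 CPM and changed by -2.47 ± 0.75. Cenpk stood at 19.6, 20, 4.44 and 5.67 CPM and changed by -2.67 ± 0.71. Incenp had 115, 100.5, 61.9 and 54.5 CPM in myoblasts of the wild type and changed by -2.18 ± 0.59. Birc5 stood at 90.7, 82.2, 23.8 and 24.8 CPM there and changed by -2.79 ± 0.74. Anln had 368, 339, 113 and 106 CPM in myoblasts of the wild type and changed by -2.68 ± 0.85, and Prc1 had 227, 207, 139 and 123 CPM and changed by -1.42 ± 0.43. Bub3 had 144, 152, 139.6 and 118 CPM in these libraries, and its log2 fold change of -0.76 ± 0.19 (adjusted p = 0.0185, edgeR) was the smallest of the 50. In the same order, the values without wild-type myotube 2 were -3.27 ± 0.39 for Aurka, -3.81 ± 0.46 for Cdc20, -3.82 ± 0.57 for Cenpk and -3.23 ± 0.27 for Incenp. They were -4.07 ± 0.50 for Birc5, -4.16 ± 0.60 for Anln, -1.96 ± 0.30 for Prc1 and -0.79 ± 0.20 for Bub3.

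The named genes that did not pass over all libraries had values in the same range with larger errors. These were Ccna2 (-2.03 ± 0.94, adjusted p = 0.154, edgeR), Nek2 (-1.95 ± 0.77), Bub1b (-2.24 ± 0.80), Espl1 (-2.49 ± 0.88), Cenpf (-2.04 ± 0.77) and Cenpe (-1.97 ± 0.93), all as log2 fold changes. Tpx2 had -2.13 ± 0.83, Kif11 -2.26 ± 0.82, Top2a -2.81 ± 0.96, Smc4 -1.31 ± 0.52 and Ccnb1 -2.31 ± 1.23. For Top2a levels in wild-type myoblasts were 1032, 915, 381 and 329 CPM and for Ccna2 121, 131, 78.9 and 70.2 CPM, and wild-type myotube 2 lay inside both ranges. All of these passed when wild-type myotube 2 was left out, at -4.32 ± 0.43 for Ccna2, -3.40 ± 0.48 for Nek2, -3.72 ± 0.53 for Bub1b, -4.45 ± 0.48 for Espl1, -3.68 ± 0.36 for Cenpf and -4.14 ± 0.46 for Cenpe. The others were -3.76 ± 0.50 for Tpx2, -3.85 ± 0.51 for Kif11, -4.75 ± 0.60 for Top2a, -2.04 ± 0.34 for Smc4 and -4.23 ± 1.13 for Ccnb1. Over all libraries 49 of the 50 genes had a log2 fold change below -1, all but Bub3.

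Within the deep set, in the fit with a mean for each group in each set, 22 of the 50 fell, with a median of -2.14, where 14.7% of all genes were called lower. Within the shallow set 10 fell, with a median of -3.66, where 3.25% of all genes were called lower. The shallow set holds wild-type myotubes 4 and 5 and not wild-type myotube 2. With only the deep libraries fitted, 3 fell (Mad2l1, Cenpk and Spc25, against 10.6% of all genes), and with only the shallow libraries all 50 fell (median -3.63, against 11.4% of all genes). The chi-square per degree of freedom between replicate libraries, over genes with 10 or more counts, ran from 4.67 to 369 in 18 pairs. It was 4.67 for wild-type myoblasts 3 and 4 and 21.9 for wild-type myotubes 4 and 5, both shallow pairs. For wild-type myoblasts 1 and 2, a deep pair, it was 39.8. This measure grows with depth. The spread in the shallow fit may be technical, and its calls may be too many. That between wild-type myoblasts 1 and 2 may be technical as well.

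**Figure D4:**
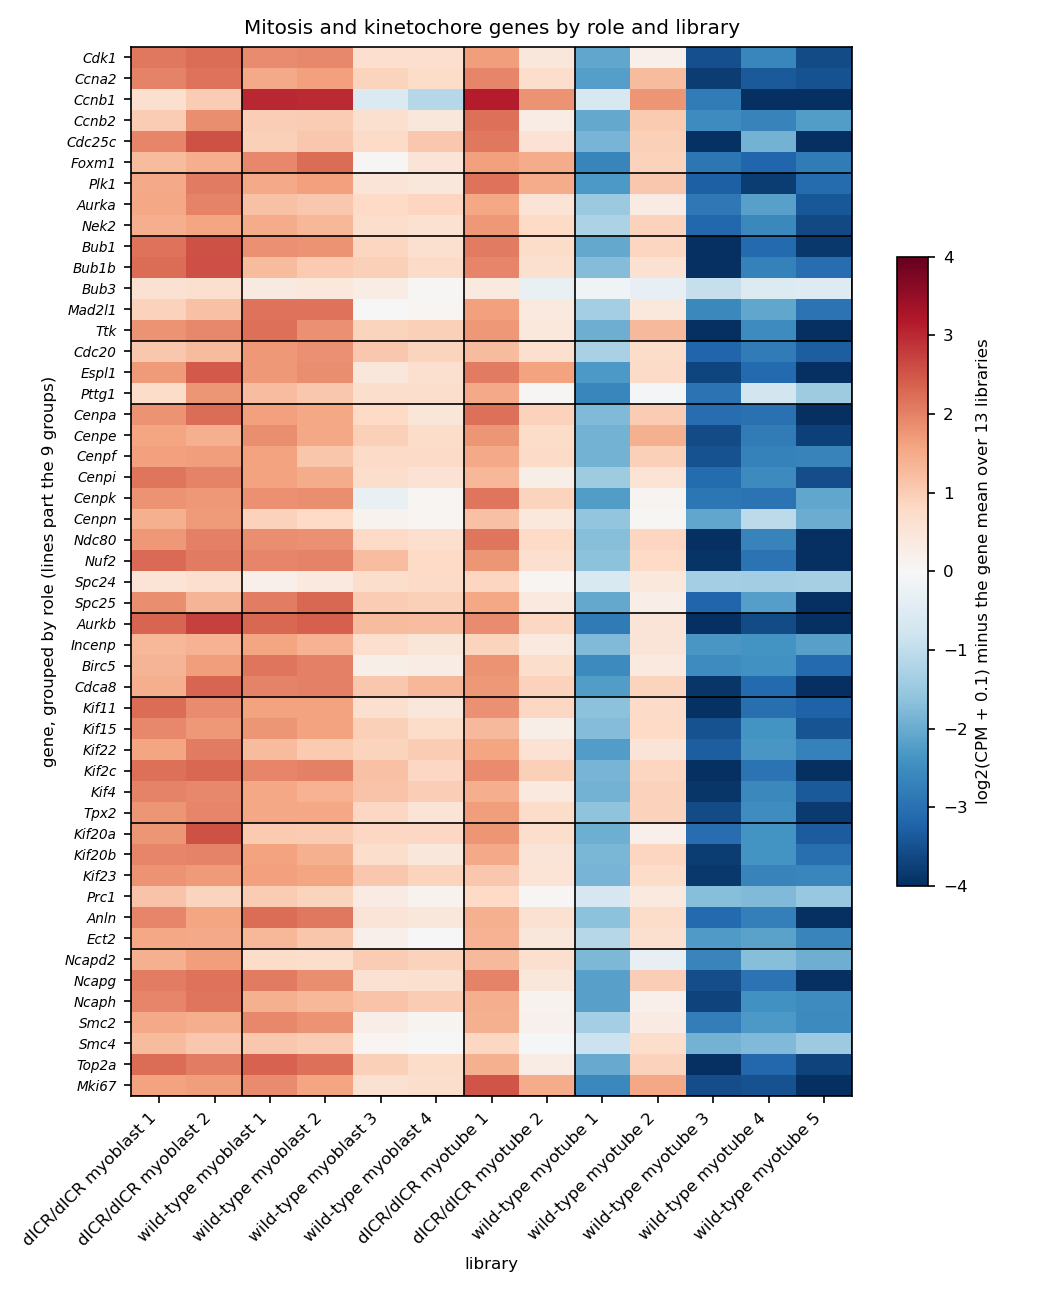
Level of each gene in each library as log2(CPM + 0.1) minus the mean of that gene over the 13 libraries (colour), with genes grouped by role and groups of libraries parted by lines. The 4 wild-type myotubes other than library 2 are low across all 9 roles, Bub3 and Spc24 vary least, and Ccnb1 is high in the deep libraries of wild-type myoblasts and dICR/dICR myotubes.

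Differentiation in dICR/dICR asks the same of cells with the deletion. Of the 50 genes 0 were called, and 0 had an unadjusted p under 0.05, by edgeR, and DESeq2 and limma voom called 0, where edgeR called 0.145% of all genes, DESeq2 7.91% and limma voom 0.593%. By edgeR 3172 of all 16537 genes had an unadjusted p under 0.05. The median log2 fold change was -0.59, against 0.00 over all genes. Values ran from -1.19 ± 1.39 for Top2a to 1.78 ± 1.85 for Ccnb1, and 44 of 50 were negative. The positive ones were Ccnb1, Ccnb2, Foxm1, Plk1, Mad2l1 and Mki67. For 30 genes both myotube libraries lay below both myoblast libraries, as for 29.1% of all genes.

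Top2a stood at 530.0 and 242 CPM in dICR/dICR myotubes, against 936 and 822 CPM in dICR/dICR myoblasts, and Cdk1 at 208 and 89.2 CPM against 278 and 304 CPM. Aurkb stood at 59.7 and 28.6 CPM in dICR/dICR myotubes, against 79.6 and 107 CPM in dICR/dICR myoblasts. Ncapd2 stood at 214 and 135 CPM in dICR/dICR myotubes, against 232 and 282 CPM in dICR/dICR myoblasts. For these 4 genes dICR/dICR myotube 2 was the lower of the 2 myotubes and lay below both myoblasts. Against dICR/dICR myoblast 1, dICR/dICR myotube 1 was higher for 19 genes and lower for 31, with a median ratio of 0.944.

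Expressed as the level kept, from the mean CPM of each group, dICR/dICR myotubes held a median of 66.6% of the dICR/dICR myoblast level over the 50 genes, from 43.9% for Top2a to 343% for Ccnb1. Wild-type myotubes held a median of 20% of the wild-type myoblast level, from 9.09% for Aurkb to 59% for Bub3, with all 5 myotube libraries. With wild-type myotube 2 left out the median was 6.82%, from 1.91% for Aurkb to 57.3% for Bub3. In wild type 1 of the 50 genes kept under 10% with all libraries and 39 did without wild-type myotube 2, whereas in dICR/dICR 0 did. Bub3 kept 68.9% in dICR/dICR and 59% in wild type, and Spc24 kept 94.9% in dICR/dICR and 43.8% in wild type. The dICR/dICR percentages set deep myotubes against shallow myoblasts. From the fitted medians, dICR/dICR kept 66.6% and wild type 20.3%. Adding the depth set to the model, dICR/dICR kept 23.6% and wild type 14.9%. The size of that term comes from the wild-type libraries, whose sets differed in more than depth, as given below.

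**Figure D5:**
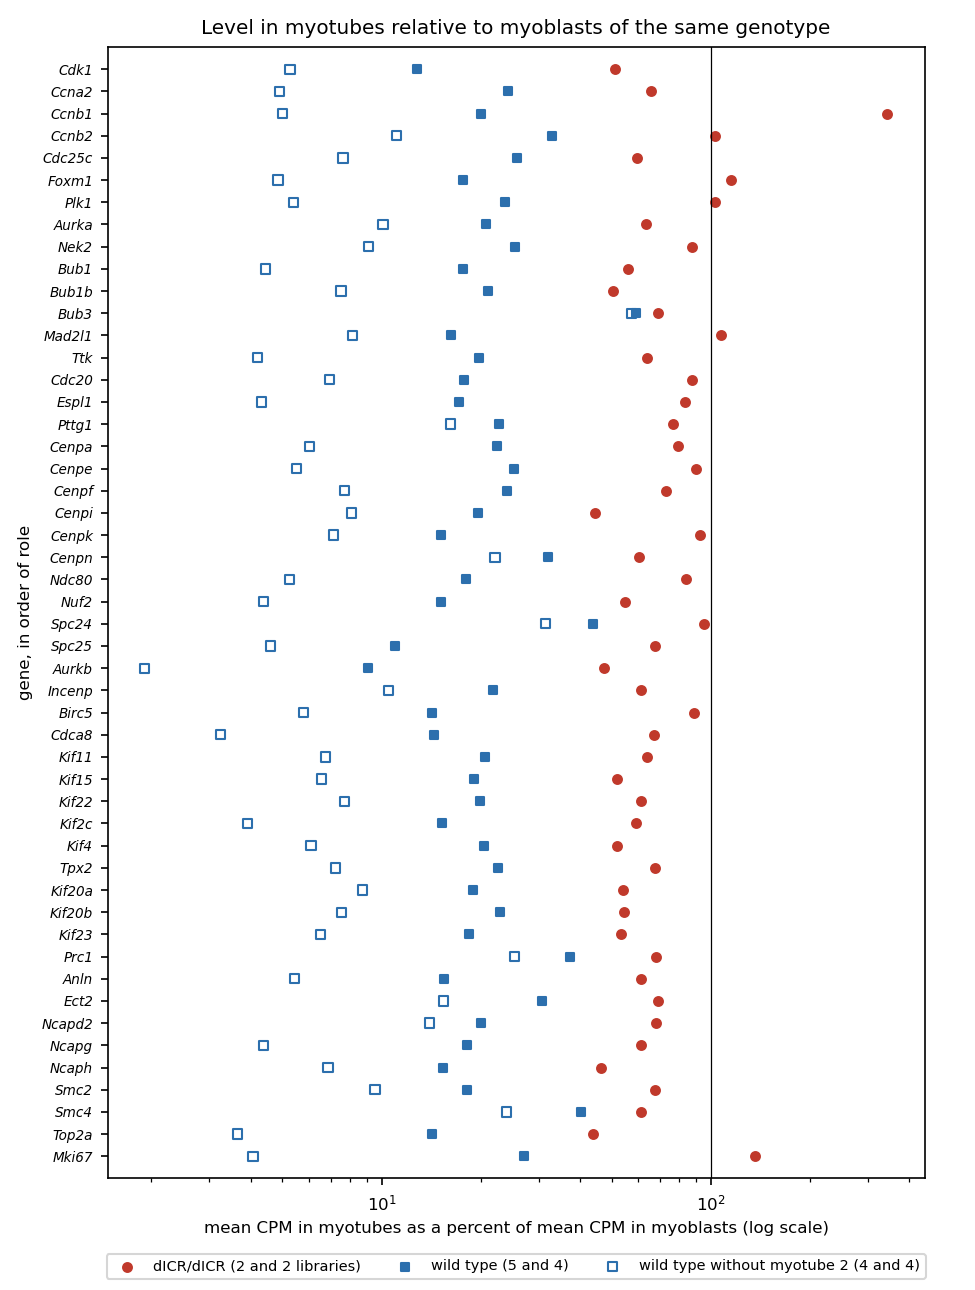
Mean level in myotubes as a percent of the mean level in myoblasts of the same genotype, on a log axis, for dICR/dICR (red circles), wild type with all libraries (filled blue squares) and wild type without myotube 2 (open squares), with a line at 100%. The dICR/dICR values lie between 43.9 and 343%, with deep myotubes set against shallow myoblasts, and the wild-type values between 9.09 and 59% with myotube 2 and between 1.91 and 57.3% without it.

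The difference between the 2 differentiation changes is the test of whether the decline was smaller with the deletion, and it shares all 13 libraries with the comparisons above. All 50 differences (dICR/dICR minus wild type) were positive, with a median of 1.65 on the log2 scale against 0.04 over all genes. By edgeR 0 of the 50 were called, and 1, Ncapd2 (1.76 ± 0.69, adjusted p = 0.495, edgeR), had an unadjusted p under 0.05, where 0% of all genes were called. Such an unadjusted p was found for 1643 of all 16537 genes. DESeq2 and limma voom called 0 of the 50, and 0.531% and 0% of all genes. Values ran from 0.22 ± 0.35 for Bub3 to 4.08 ± 2.28 for Ccnb1. Without wild-type myotube 2 the median was 3.18, 49 genes had an unadjusted p under 0.05, and 0 were called. Both dICR/dICR myoblasts are shallow and both dICR/dICR myotubes deep, so in dICR/dICR the depth set and differentiation cannot be told apart. With the depth set as a term in the fit, whose size then comes from the wild-type groups, the median difference was 0.56. The dICR/dICR differentiation median was -2.09 with all 50 negative. In either, 0 were called, where 7.63% of all genes were called in dICR/dICR differentiation and 0.0968% in the difference. The wild-type sets differed in more than depth, as Myog, H19 and Ddx3y in myoblasts show below, and the deep set holds wild-type myotube 2. The term takes in these differences together with depth, and they cannot be told apart.

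The genotype effect in myoblasts asks whether the 2 genotypes differ while dividing. Of the 50 fold changes 45 were positive and 5 negative, with a median log2 fold change of 0.58 against -0.06 over all genes. By edgeR 0 were called and 0 had an unadjusted p under 0.05, DESeq2 and limma voom called 0. Over all genes edgeR called 0.0302%, DESeq2 3.42% and limma voom 0.0544%, and by edgeR 2009 of 16537 had an unadjusted p under 0.05. Values ran from -1.27 ± 1.65 for Ccnb1 to 1.40 ± 0.98 for Bub1b. Bub1b stood at 277 and 353 CPM in dICR/dICR myoblasts, against 139.5, 122, 115 and 99.0 CPM for the wild type, without overlap. Cdk1 also did not overlap, at 278 and 304 CPM in dICR/dICR myoblasts, with a log2 fold change of 0.75 ± 0.90. Both dICR/dICR myoblasts lay above all 4 wild-type myoblasts for 24 of the 50 genes, as for 14.2% of all genes.

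Set against the shallow wild-type myoblasts 3 and 4 alone, both dICR/dICR myoblasts were higher for 48 of the 50 genes, all but Cdc20 and Spc24, as for 30.7% of all genes. With only the shallow libraries fitted, 40 of the 50 were called higher, with a median log2 fold change of 1.16, where 11.3% of all genes were called higher. In the fit of all libraries with a mean for each group in each set, the same contrast gave a median of 1.14 and 0 calls by edgeR, 2 genes having an unadjusted p under 0.05, where 1.94% of all genes were called higher. The second fit takes its spread from all 13 libraries and the first from the 6 shallow ones. Wild-type myoblasts 3 and 4 had the lowest chi-square per degree of freedom of the 18 replicate pairs, 4.67, and dICR/dICR myoblasts had 34.3. The 40 calls may therefore rest on technical spread. Bub1b was 1.58 ± 0.20 and Cdk1 1.52 ± 0.24 with the shallow libraries alone. In this comparison genotype goes with 2 other measures. Sarcomere genes had a mean log2 CPM of 7.61 and 6.76 in dICR/dICR myoblasts, against 7.05, 7.0, 9.19 and 9.25 for wild-type myoblasts 1 to 4. Ddx3y stood at 14.5 and 63.1 CPM in dICR/dICR myoblasts, against 0.247 and 0.153 CPM for the shallow wild-type myoblasts 3 and 4, so that genotype and Y-linked expression cannot be told apart among the shallow myoblasts.

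Within wild-type myoblasts the sets differed on the members themselves. The mean of the deep libraries exceeded that of the shallow ones for 48 of the 50 genes, by a median of 1.89 times, from 0.749 times for Spc24 to 14.4 times for Ccnb1. The same libraries differed in other genes. In wild-type myoblasts 1 to 4 Myog stood at 146, 142, 1179 and 1196 CPM and H19 at 2610, 2340, 18500 and 17500 CPM. Ddx3y stood at 33.4, 27.6, 0.247 and 0.153 CPM. Depth and these differences cannot be told apart here. Ccnb1 was the 1 gene that divided all 13 libraries by set: it made up 1.24 to 3.82% of the counts of the 50 genes in the deep set and 0.239 to 0.763% in the shallow set, whatever the group. It stood at 43.4 and 56.2 CPM in dICR/dICR myoblasts, both shallow, against 228, 218, 18.5 and 12.6 CPM in wild-type myoblasts 1 to 4, and at 245 and 96.2 CPM in dICR/dICR myotubes, both deep. Its negative myoblast effect, -1.27 ± 1.65, turned to 1.70 ± 0.26 with the shallow libraries alone, and its positive dICR/dICR differentiation value turned to -2.56 with the depth set as a term. The reference annotation lists pseudogenes named for Ccnb1, Ccnb2, Kif22 and Kif4, so counts of these 4 genes may be shared with a near-identical copy and are uncertain.

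A second list of 71 mitotic genes, none of which is among the 50, gave counts of the same kind. In dICR/dICR against wild-type myotubes 1 of 71 was higher, Gtse1, which binds microtubules and the tumour suppressor p53, at 1.80 ± 0.33 (adjusted p = 0.0393, edgeR), where the median of the list was 1.97. In that comparison 0.333% of all genes were called higher. Gtse1 stood at 45.1 and 47.1 CPM in dICR/dICR myotubes, against 9.14, 22.6, 8.51, 15.1 and 10.6 CPM in wild-type myotubes. With wild-type myotube 2 left out, 56 were higher, where 4.59% of all genes were called higher. In wild-type differentiation 32 of 71 fell (median -2.02), with the smallest p for Gtse1 (-3.22 ± 0.30), the spindle protein gene Ckap2 (-2.59 ± 0.34) and the condensin II gene Ncapd3 (-1.30 ± 0.26), and 61 fell without wild-type myotube 2. Of all genes 10.2% were called lower in that comparison, and 13% without wild-type myotube 2. In dICR/dICR differentiation, in the myoblast effect and in the difference of changes 0 of 71 were called by edgeR.

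The 12 genes of DREAM and MuvB, which are known regulators of mitotic promoters, had smaller medians. The median was 0.43 in dICR/dICR over wild-type myotubes and -0.16 in wild-type differentiation. Rbl1, the gene of the pocket protein p107, was the 1 of the 12 that passed in wild-type differentiation (-2.35 ± 0.60, adjusted p = 0.0184, edgeR). A single call of 12 is near the share of all genes called lower there, 10.2%. Rbl1 stood at 47.1 and 24.4 CPM in dICR/dICR myotubes, against 5.52, 30.2, 3.34, 6.31 and 5.70 CPM in wild-type myotubes, with library 2 of the wild type again between the dICR/dICR libraries. Mybl2, the gene of B-MYB, stood at 31.7 and 21.7 CPM in dICR/dICR myotubes, against 1.26, 19.3, 1.13, 0.62 and 2.44 CPM in wild-type myotubes, and did not overlap. Without wild-type myotube 2 both were called higher, Mybl2 by 4.33 ± 0.60 and Rbl1 by 2.76 ± 0.40 on the log2 scale, where 4.59% of all genes were called higher.

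The 20 DNA replication genes, which act before mitosis, had a median of 2.43 in dICR/dICR over wild-type myotubes, with all 20 positive and 0 called by edgeR, where 0.333% of all genes were called higher. Leaving out wild-type myotube 2, 16 were higher, where 4.59% of all genes were called higher. In wild-type differentiation 18 of 20 fell (median -2.36), where 10.2% of all genes were called lower, against 22 of the 50 mitotic genes, which had a like median. The 3 with the smallest p were the helicase gene Mcm2 (-2.17 ± 0.46), the flap endonuclease gene Fen1 (-1.83 ± 0.40) and Gins1 of the replicative helicase (-2.36 ± 0.52). The summed CPM of the 20 genes was 2210 and 974 in dICR/dICR myotubes, against 335, 967, 191, 175 and 157 in wild-type myotubes 1 to 5, so wild-type myotube 2 stood apart on these genes as well. Of the 20 sarcomere genes 12 rose in wild-type differentiation (median 1.98), where 8.86% of all genes were called higher, and in dICR/dICR differentiation, with the same median, 1 rose, the myosin light chain gene Myl1 (3.73 ± 0.49, adjusted p = 0.0151, edgeR), where 0.115% of all genes were called higher.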

How the data were processed

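Ribosome-depleted RNA of 13 libraries was analysed from a table of whole-number counts per gene that the authors deposited. Reads were aligned to mm9 with TopHat2 and counted with HTSeq, per the submitters' processing notes, and versions, annotation, counting mode and strand were not stated in the sources used here. Reads shared between near-identical genes or overlapping strands may therefore be counted in either. Total counts ran from 5.313 to 56.44 M.

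Genes passing edgeR's filterByExpr by group (minimum count 10, minimum total 15) numbered 16537. They were scaled with TMM and tested with the quasi-likelihood test of edgeR 4.0.16 in R 4.3.3, with 4 group means fitted to all 13 libraries. P-values were adjusted by Benjamini and Hochberg over all genes, and called means an adjusted p under 0.05. Errors of fold changes are standard errors from the F statistic. CPM uses TMM-scaled library sizes, and log2 CPM a prior count of 2. The test was tried on simulated counts. DESeq2 1.42.0, limma voom (limma 3.58.1), other scalings, no filter, depth set (over or under 20 M counts) as a term or alone, a replicate block, removal of small nucleolar RNA genes and leaving out each library were alternatives, and the fits with a mean for each group in each set and the crossed block were chosen after seeing the data.

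Members and lists were chosen with earlier results of these data known. Named in full are the 2 genes of highest mean log2 CPM in each role, up to 3 called genes of largest fold change and both ends of the range in each comparison, and from each list the 3 genes of smallest p where any was called. Mad2l1 in the promoter section and Gtse1, Rbl1 and Mybl2 levels were added after their values were seen.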

Additional observations from a re-analysis of the deposited data

Results flagged for a closer look

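Wild-type myotube 2 stood far above the other 4 wild-type myotubes for 21 of the 23 genes given in full and for the summed CPM of the 50 genes. The measure, taken on CPM without logs, is the gap between the highest library and the next, divided by the range of the 5. Its limit is 0.71 (Dixon's 95% value). Of 48 tests of groups of 4 or 5 libraries 22 passed. Chance gives about 1 in 20 only if values are normally distributed, and the genes are not independent of each other. The ratio was 0.857 for Cdk1, 0.939 for Ccna2, 0.822 for Ccnb1, 0.775 for Aurka and 0.814 for Nek2. It was 0.825 for Bub1b, 0.805 for Cdc20 and 0.910 for Espl1. Kinetochore genes gave 0.902 for Cenpf, 0.925 for Cenpe, 0.884 for Cenpk and 0.833 for Spc25, and passenger genes 0.914 for Incenp, 0.940 for Birc5 and 0.926 for Aurkb. Spindle and furrow genes gave 0.860 for Tpx2, 0.845 for Kif11 and 0.835 for Anln, and genes of chromosome structure 0.894 for Top2a, 0.795 for Smc4 and 0.772 for Ncapd2. The summed CPM gave 0.858. Bub3 and Prc1 did not pass. On the log2 scale the mean log2 CPM of the 50 genes was 3.18, 5.65, 1.71, 2.4 and 1.71 in wild-type myotubes 1 to 5. The gap was a smaller part of the range there. The ratio was not taken on that scale, so these flags hold for CPM alone.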

How the results depend on the processing

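The fold changes depend chiefly on wild-type myotube 2, dICR/dICR myotube 1 and the depth sets, and the cause was not tested. Without dICR/dICR myotube 1 the median was 1.68 in myotubes, -1.21 in dICR/dICR differentiation and 1.02 in the difference of changes. The count called in myotubes, 1 over all libraries, was 7 with DESeq2, 14 with limma voom and 0 with deep libraries alone or the replicate block, and ran from 0 to 49 leaving out single libraries, with medians of 1.68 to 3.86. The 22 called in wild-type differentiation became 37 with DESeq2, 49 with voom, 48 with depth set as a term, 3 with deep and 50 with shallow libraries alone, 44 with the replicate block, 10 within the shallow set in the fit of all libraries, and 5 to 50 leaving out single libraries. Its median was -3.63 with shallow libraries alone, -3.66 within the shallow set in the fit of all libraries, and -3.86 to -2.02 leaving out single libraries. In dICR/dICR differentiation the median was -2.09 with depth set as a term and -1.21 to -0.20 leaving out single libraries. The median difference of changes was 0.56 with the term and 1.02 to 3.18 leaving out single libraries. In myoblasts 40 were called with shallow libraries alone, and the median turned to -0.32 with the replicate block and ran from 0.45 to 0.78 leaving out single libraries. Ccnb1 in myoblasts turned to 1.92 with the term, 1.70 with shallow libraries alone and 1.67 within the shallow set in the fit of all libraries, and in dICR/dICR differentiation to -2.56 with the term. Cdk1 in myoblasts turned to -0.06 with the block, and Bub3 in the difference of changes to -0.16 without dICR/dICR myotube 1. Same-numbered libraries correlated at -0.41 to 0.52 in their deviations from the group mean. In wild type the value was 0.43 to 0.52 where both libraries were of the same depth set and -0.41 for pair 3, where they were not. These values therefore cannot decide whether the numbers pair the libraries. With 2 libraries a group both dICR/dICR values must be equal, and they stood at -0.39. The crossed block, with the numbers of the 2 dICR/dICR myotubes exchanged, called 0 members and 1046 genes in dICR/dICR differentiation. The block with the numbers as given called 0 members and 100 genes there, and 24 genes were called without a block. Scaling by library size alone moved the median log2 fold change of all genes by -0.28 in wild-type and -0.29 in dICR/dICR differentiation, 0.13 in myotubes and 0.14 in myoblasts, and RLE scaling by -0.13 in dICR/dICR differentiation and -0.17 in the difference. Calls over all genes, 55 higher and 37 lower in myotubes and 19 and 5 in dICR/dICR differentiation with TMM, were 65 and 19 and 11 and 11 with library size alone, and 17 and 14 in dICR/dICR differentiation with RLE. In myoblasts 3 higher and 2 lower became 4 and 0 with library size alone and 3 and 0 with RLE. Depth limits the lowest genes of the shallow libraries.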
